A study of Mus musculus with 16 samples.

Results

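The ileum, the distal part of the small intestine, was compared between suckling and weaned mice in epithelial cells taken at P6 (postnatal day 6) and at P36. The ileum libraries were chosen by the tissue region given in the labels, 8 of the 16 bulk RNA sequencing libraries of the experiment: 4 from P6 mice and 4 from P36 mice, all of them wild-type C57BL6/J mice, with 2 females (replicates 1 and 2) and 2 males (replicates 3 and 4) at each age. A segment of ileum was opened and held in buffer with EDTA, the released epithelial cells were washed and frozen, and stranded mRNA libraries were made from their RNA. By the authors' account P6 mice were killed by decapitation and P36 mice with carbon dioxide. The hold in EDTA could also last longer at P36. These steps of handling cannot be told apart from age. Each mouse was sampled at 1 age, so the comparison of ages is unpaired, and the jejunum of the same 8 mice is used only where the ileum is set against it. In bulk RNA, fewer cells of a type and less RNA per cell cannot be told apart.

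In rodents the ileum of the suckling period is lined by enterocytes that take up milk proteins from the lumen whole and digest them inside a giant lysosomal vacuole. These lysosome-rich enterocytes use a receptor complex of cubilin and amnionless with the adaptor Dab2 to bring luminal protein into the cell, and acid proteases and glycosidases to break it down. At weaning they are replaced by enterocytes of the adult kind, which digest sugars and peptides at the brush border and, in the ileum, take bile acids back up. Paneth cells, which secrete antimicrobial proteins from the base of the crypt, form during the same weeks, as the microbiota grows and solid food replaces milk.

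A pair of letter patterns recurs in the promoters of genes treated below and is shown here beside the genes they belong to. The first is TCACGTG, the core letters of the element bound by the lysosomal regulators Tfeb and Tfe3. It was searched on both strands in RefSeq promoters (build GRCm38.p6, 250 bases before to 50 bases after the annotated start) and stood in 695 of 10219 tested genes with a promoter in the table, 6.8%. Among 4 lists of lysosomal genes it stood in 19 of 70, 27.1%: 4 of 14 protease genes, 6 of 29 glycosidase, sulfatase and lipid hydrolase genes, 5 of 16 membrane protein genes and 4 of 11 proton pump genes. A list of 7 lysosomal genes whose RNA fell with age follows, each with the stretch of its promoter that holds the match, read 5′ to 3′ on the strand of the gene, with matches on either strand in capitals.
Lgmn, chr12:102439103-102439162, minus strand: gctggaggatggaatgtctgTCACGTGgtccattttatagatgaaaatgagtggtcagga
Ctsa, chr2:164833740-164833804, plus strand: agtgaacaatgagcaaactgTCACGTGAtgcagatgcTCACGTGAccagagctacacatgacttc
Dpp7, chr2:25356367-25356426, minus strand: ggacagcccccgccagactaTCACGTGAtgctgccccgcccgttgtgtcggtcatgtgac
Glb1, chr9:114401009-114401068, plus strand: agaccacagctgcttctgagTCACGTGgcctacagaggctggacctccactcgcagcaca
Gla, chrX:134601173-134601253, minus strand: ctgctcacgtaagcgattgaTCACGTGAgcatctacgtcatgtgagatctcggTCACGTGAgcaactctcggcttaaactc
Mcoln1, chr8:3500427-3500500, plus strand: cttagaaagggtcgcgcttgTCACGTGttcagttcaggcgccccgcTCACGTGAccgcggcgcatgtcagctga
Cln3, chr7:126583331-126583405, minus strand: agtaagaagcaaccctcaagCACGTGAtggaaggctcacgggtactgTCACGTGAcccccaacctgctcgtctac
The second pattern, GAAA followed by any 2 letters and GAAA again, is the core of the interferon-stimulated response element. It stood in 379 of the 10219 promoters, 3.71%, and in 18 of the 27 promoters of interferon-induced genes, 66.7%. These genes did not move one way with age, and 3 promoters of genes called higher at P6 (Ifit1, Ifit3 and Gbp7) stand below beside those of Oas3 and Gbp2, which were called higher at P36.
Ifit1, chr19:34640765-34640833, plus strand: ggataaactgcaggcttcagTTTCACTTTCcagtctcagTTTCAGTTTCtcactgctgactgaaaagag
Ifit3, chr19:34583353-34583436, plus strand: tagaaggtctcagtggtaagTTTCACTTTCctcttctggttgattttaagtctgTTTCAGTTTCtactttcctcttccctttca
Gbp7, chr3:142530263-142530322, plus strand: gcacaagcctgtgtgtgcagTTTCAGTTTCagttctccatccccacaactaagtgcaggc
Oas3, chr5:120777695-120777754, minus strand: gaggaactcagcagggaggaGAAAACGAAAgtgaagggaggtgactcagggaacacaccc
Gbp2, chr3:142620584-142620643, plus strand: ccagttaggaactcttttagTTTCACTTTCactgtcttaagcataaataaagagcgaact
A match is a run of letters in the genome and says nothing of binding in these cells.

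The total count per library lay between 16629589 and 21147258 at P6 and between 12159237 and 21776158 at P36 (two-sided exact permutation p = 0.543, n = 4 per group). Levels are given as CPM, counts scaled to the library total corrected by TMM factors. Epcam, the surface protein of epithelial cells, was at 1901 ± 168 CPM (SD, n = 4) at P6 and 1728 ± 363 CPM at P36 (exact permutation p = 0.4). The 9 epithelial markers, Epcam among them, summed to between 6600 and 8500 CPM at P6 and between 16400 and 21700 CPM at P36. Their log2 fold change from P6 to P36 was positive for 7 and negative for 2 (median 1.05). The defining markers of the ileum summed to between 292 and 716 CPM at P6 and between 4750 and 11700 CPM at P36, with all 5 present at both ages. Several libraries stood apart. P6 replicate 4 lay more than 4-fold below the other 3 P6 libraries in 996 of 13429 genes. Each of the others did so in 6 to 14 genes. The deviations of replicate 4 followed the GC content of the transcript (Spearman's rho -0.754 across genes, which are not independent replicates). The other P6 libraries had 0.417 to 0.595, but each deviation is from the mean of the other libraries of the group. Replicate 4 is thus part of their reference, and their positive values partly mirror it. P6 replicate 2 carried RNA of deeper layers: smooth muscle markers summed to 228 CPM there and to 1.41 to 3.53 CPM in the other P6 libraries, fibroblast markers to 247 CPM against 20.6 to 44.4 CPM, and endothelial markers to 40.7 CPM against 2.49 to 6.82 CPM. The same 3 sums were at most 1.53, 26.0 and 2.78 CPM at P36. P36 replicate 3 lay more than 4-fold below the other P36 libraries in 102 genes. Without any single library the counts of called genes in the lists below changed by at most 4 genes, and the counts that moved by over 1.5 times are given beside the list.

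**Figure D1:**
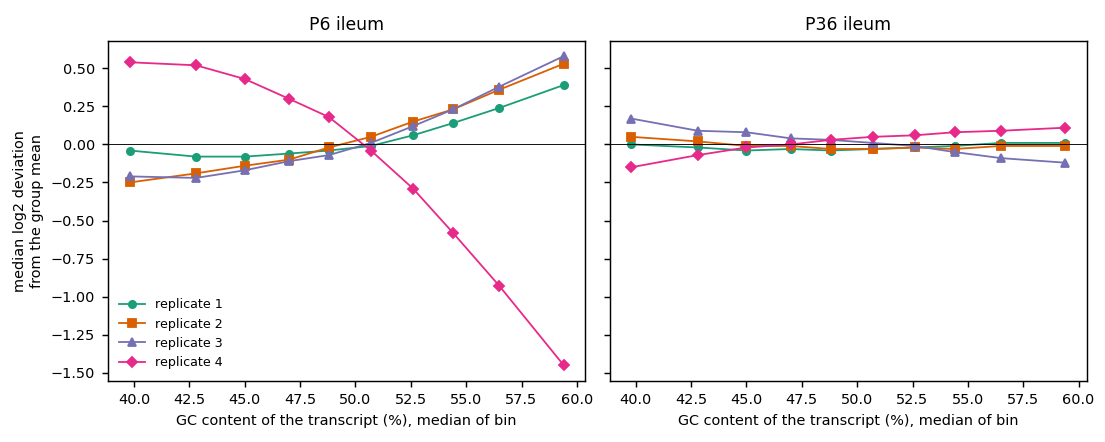
Median deviation of a gene from its group mean (y axis, log2) against the GC content of its transcript (x axis, percent) in 10 bins of genes, for each P6 library (left) and each P36 library (right). P6 replicate 4 falls from 0.54 in the bin with the lowest GC content to -1.45 in that with the highest, while P6 replicate 1 runs from -0.04 to 0.39. The group mean includes replicate 4, so the deviations of the other P6 libraries balance its own.

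Of the 13429 genes tested, 859 (6.40%) were called higher at P36 and 1345 (10.0%) higher at P6, where a call is an adjusted p below 0.05 in edgeR's quasi-likelihood test and an absolute log2 fold change above 2. Counts of called genes in the lists below are to be read beside these shares, and several lists lay near them. With the adjusted p alone, 3428 genes (25.5%) were higher at P36 and 4047 (30.1%) higher at P6. Values in brackets after a gene are its log2 fold change from P6 to P36, with the SE after the ± sign where it is given. The median log2 fold change was 3.01 among the genes called higher at P36, -3.40 among those called higher at P6 and -0.03 over all tested genes. Genes called higher at P6 held 20.4 ± 0.923% (SD, n = 4) of the counts of a P6 library and 1.74 ± 0.418% of those of a P36 library, and genes called higher at P36 went from 1.26 ± 0.161% to 18.0 ± 1.36%. Falls reached further than rises: 518 of the 1345 genes fell by more than 4 on the log2 scale, and 240 of the 859 rose by as much. No count was found in any P36 library for 62 of the genes that fell and in any P6 library for 13 of those that rose. All 4 libraries of an age lay above all 4 of the other for 1222 of the 1345 and for 778 of the 859, and for 5962 (44.4%) of all tested genes.

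**Figure D2:**
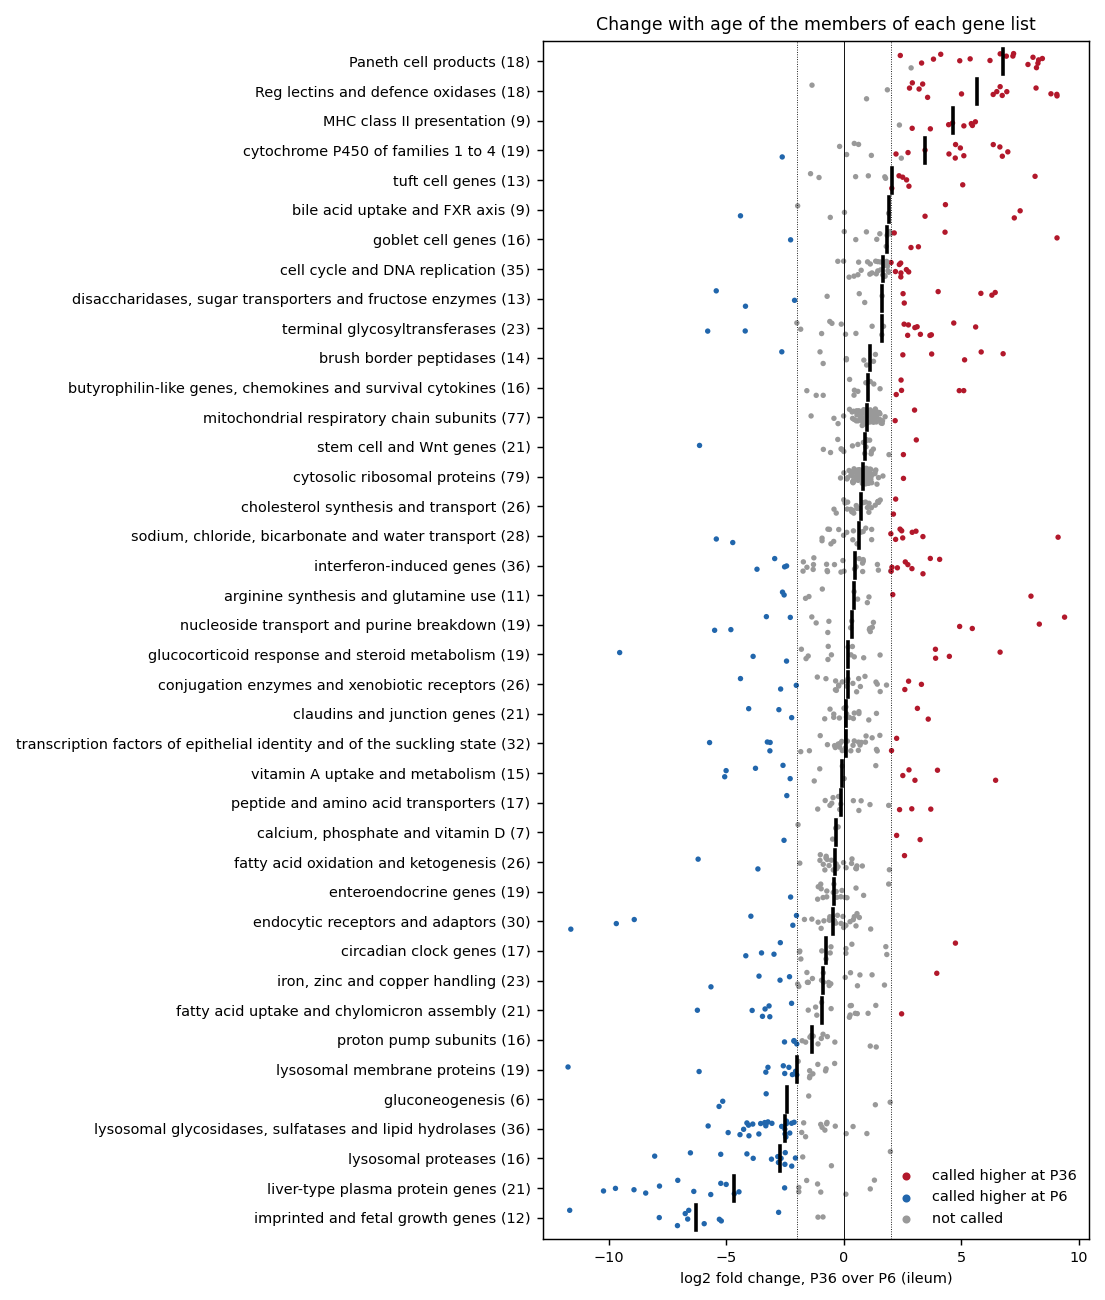
Log2 fold change from P6 to P36 in the ileum (x axis) of each tested member of 40 gene lists (points, number tested in brackets), with the median of each list as a black bar and dotted lines at -2 and 2. The medians run from -6.28 for imprinted and fetal growth genes to 6.79 for Paneth cell products.

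The genes with the most RNA per length were largely different at the 2 ages, but some kept a high rank. Among the 10 highest genes by RPKM (the CPM per kilobase of exon) at P6 and the 10 highest at P36, the translation factor gene Eef1a1 was the only gene in both sets. Apoa1 went from rank 2 at P6 to 17 at P36, Guca2a from 9 to 35, Tff3 from 23 to 6 and Lypd8 from 12 to 10. At the other extreme, Gpx3 went from rank 1 to 9516 and Zg16 from 5064 to 4. At P6 the highest was Gpx3 (chr11:54902854-54910382, mm10), the secreted glutathione peroxidase, at 6008 RPKM at P6 and 2.22 RPKM at P36. Its 4 libraries read 8815, 10897, 8258 and 8484 CPM at P6 and 2.43, 3.91, 1.76 and 5.38 CPM at P36 (-11.42 ± 0.46, edgeR adjusted p = 3.86e-11). The libraries of the 2 ages did not come near each other. The other P6 leaders were the apolipoprotein genes Apoa1 and Apoa4, the lysosomal protease genes Lgmn and Ctsl, Clca4b, the ferritin light chain gene Ftl1, the guanylin gene Guca2a and the trypsin inhibitor gene Spink1. Of these, Apoa4 (-6.24), Lgmn (-6.54), Ctsl (-8.06) and Clca4b (-2.27) were called, and the Clca4b call was lost without P6 replicate 4 (-1.96) and without P36 replicate 3 (-1.92). Ftl1 (GC-rich) was at 3080.5, 3264, 3485 and 73.9 CPM at P6 and 633, 625, 585 and 686 CPM at P36, so that P6 replicate 4 alone lay below the P36 libraries, and the log2 fold change went from -1.97 to -2.37 without it, which was called, as it was without P36 replicate 4.

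At P36 the highest gene was Reg3b (chr6:78370885-78373466), an antibacterial lectin of the Reg family, at 156 RPKM at P6 and 45262 RPKM at P36. Its libraries read 166, 42.6, 246 and 18.1 CPM at P6 and 35626, 24291, 37516 and 39983 CPM at P36 (8.18 ± 0.88, edgeR adjusted p = 1.09e-06). The next were its relative Reg3g, the ileal bile acid binding protein gene Fabp6, Zg16, whose lectin product binds Gram-positive bacteria in mucus, the Paneth cell lysozyme gene Lyz1, the goblet cell peptide gene Tff3, the defensin-like gene Gm15284, Crip1 and Lypd8. Reg3g (8.82), Fabp6 (7.51), Zg16 (9.08), Lyz1 (8.29), Gm15284 (7.93) and Crip1 (4.52) were called. Tff3 (1.96) and Lypd8 (0.97) were not, although their libraries did not overlap between the ages, and Tff3 was called without P6 replicate 1 (2.07) or 2 (2.16) or P36 replicate 1 (2.03) or 2 (2.04).

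**Figure D3:**
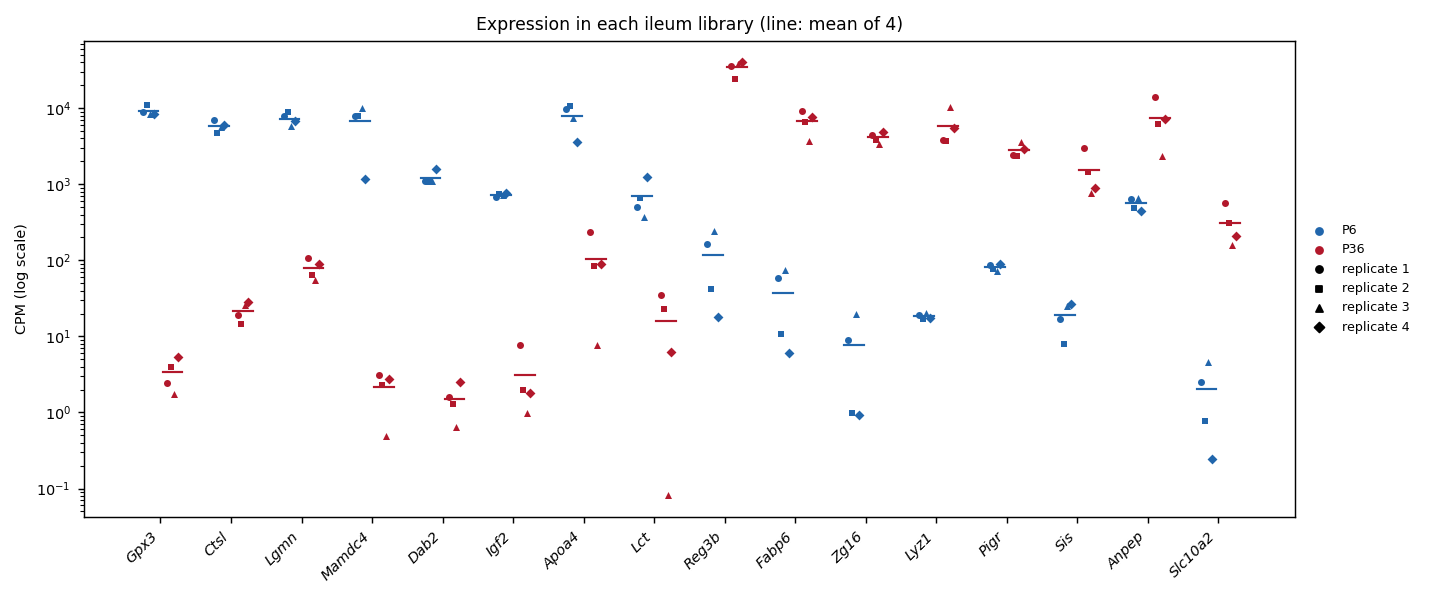
CPM on a log axis of 16 genes in each of the 8 ileum libraries, P6 in blue and P36 in red, with marker shape for the replicate and a line at the mean of 4. The P6 and P36 libraries do not overlap for any of these 16 genes, and P6 replicate 4 lies apart for Mamdc4 at 7992, 7876, 10139 and 1189 CPM at P6.

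Among the 10 largest falls of abundant genes, 5 had no count at P36: Cmtm8, Folr2, Dio3os, Gm13178 and Gm438, with 3159, 1870, 1631, 2557 and 1793 counts over the 4 P6 libraries. Folr2 encodes a folate receptor. Hyal5, a hyaluronidase gene, went from 14887 to 3 counts, Nox4, an NADPH oxidase gene, from 9959 to 2, and Tfec, a transcription factor gene of the Mitf and Tfeb family, from 18447 to 3. Mcoln3, a lysosomal cation channel gene, was at 518, 450.1, 291 and 719 CPM at P6 and 0.276, 0.113, 0.0817 and 0.0791 CPM at P36 (-11.75 ± 0.59, edgeR adjusted p = 2.42e-10). The imprinted noncoding RNA H19 was at 858, 618, 663 and 269.8 CPM at P6 and 0.111, 0.227, 0.204 and 0.158 CPM at P36 (-11.68 ± 0.57, edgeR adjusted p = 1.81e-10). P6 replicate 4 was the highest library for the channel gene and the lowest P6 library for the noncoding RNA. Of the 10 largest rises, Ido1, the enzyme that starts tryptophan breakdown to kynurenine, went from 2 to 1226 counts, the secreted phospholipase gene Pla2g5 from 3 to 2867, and the nucleoside transporter gene Slc28a3 from 5 to 3288. Car4, a carbonic anhydrase of the brush border, was at 0.494, 0.0862, 1.30 and 0.0490 CPM at P6 and 332, 189.8, 226 and 296 CPM at P36 (9.12 ± 0.59, edgeR adjusted p = 3.67e-09), and the sulfate transporter gene Slc13a1 was at 1.53, 0.258, 3.63 and 0.736 CPM at P6 and 684, 513, 262 and 508 CPM at P36 (8.34 ± 0.66, edgeR adjusted p = 3.94e-08). Reg3g, Zg16, 1810065E05Rik (8.70) and the Paneth cell gene Gm14851 (9.16) were also among them. Gm14851 belongs to the alpha-defensin family, whose near-identical copies leave the counts of single members uncertain.

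The genes that bring luminal protein into the cell fell unequally. Of 30 tested genes for endocytic receptors and adaptors, 6 were called higher at P6 and 0 higher at P36 (median log2 fold change -0.44). Dab2, the adaptor, was at 1116, 1056, 1098 and 1605 CPM at P6 and 1.603, 1.30, 0.653 and 2.53 CPM at P36 (-9.69 ± 0.51, edgeR adjusted p = 4.92e-10). Mamdc4, which encodes endotubin of the apical endosome, was at 7992, 7876, 10139 and 1189 CPM at P6 and 3.15, 2.33, 0.490 and 2.77 CPM at P36 (-11.63 ± 0.84, edgeR adjusted p = 1.37e-08). P6 replicate 4 was the lowest of its group for this GC-rich gene, still far above every P36 library. Lrp2, the megalin receptor gene, was at 96.4, 81.2, 60.6 and 217 CPM at P6 and 0.0553, 0.170, 0.123 and 0.712 CPM at P36 (-8.93 ± 0.59, edgeR adjusted p = 5.55e-09). The genes of the cubilin receptor complex moved much less. Cubn, which encodes cubilin, was at 1974, 1763, 2171 and 3122 CPM at P6 and 1019, 457, 64.0 and 462 CPM at P36 (-2.17 ± 0.51, edgeR adjusted p = 0.00195). Amn was at 300.1, 257, 359.7 and 42.3 CPM at P6 and 98.9, 47.2, 28.8 and 62.0 CPM at P36 (-2.02 ± 0.47, edgeR adjusted p = 0.00192). Its P6 replicate 4 lay among the P36 libraries. Both calls sat close to the fold change limit. That of Cubn was lost without P36 replicate 3 (-1.80) and without P6 replicate 4 (-1.97). That of Amn was lost under 8 of 20 alternatives, among them DESeq2, median-of-ratios scaling and the fits without P6 replicate 1 (-1.88), 2 (-1.98) or 3 (-1.74) or without P36 replicate 2 (-1.92) or 3 (-1.78). Transcript of cubilin lay at 64.0 to 1019.8 CPM at P36, while that of its adaptor was at 0.653 to 2.53 CPM. Fcgrt, the neonatal Fc receptor gene, was at 1461, 1259, 1032 and 326 CPM at P6 and 62.3, 61.9, 70.3 and 67.5 CPM at P36 (-3.96 ± 0.34, edgeR adjusted p = 1.05e-07).

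The degradative genes fell together. Of 16 tested lysosomal protease genes, 13 were called higher at P6 and 0 higher at P36 (median log2 fold change -2.73). Lgmn, which encodes the asparaginyl protease legumain, was at 7865, 8861, 5818 and 6707 CPM at P6 and 106, 63.7, 55.5 and 90.1 CPM at P36 (-6.54 ± 0.28, edgeR adjusted p = 5.41e-11). Ctsl, the cathepsin L gene, was at 7003, 4712, 5578 and 5923 CPM at P6 and 19.1, 14.3, 25.7 and 28.1 CPM at P36 (-8.06 ± 0.38, edgeR adjusted p = 1.38e-10). Neither gene had overlapping libraries. Ctsa, which encodes protective protein cathepsin A, was at 2589 ± 446 CPM (SD, n = 4) at P6 and 148 ± 23.8 CPM at P36 (-4.13 ± 0.20, edgeR adjusted p = 1.37e-10). Dpp7, a dipeptidyl peptidase gene, was at 460.4 ± 189.6 CPM (SD, n = 4) at P6 and 12.2 ± 1.08 CPM at P36 (-5.24 ± 0.31, edgeR adjusted p = 1.56e-09). Tpp1, a tripeptidyl peptidase gene, was at 719 ± 129 CPM (SD, n = 4) at P6 and 49.5 ± 4.92 CPM at P36 (-3.86 ± 0.15, edgeR adjusted p = 3.20e-11). Ctsc, the dipeptidyl peptidase that activates granule proteases of immune cells, moved the other way, at 29.9, 31.8, 29.6 and 67.1 CPM at P6 and 178, 136, 156 and 155 CPM at P36. Its libraries did not overlap, and its log2 fold change of 1.98 was just under the limit of a call and above it without P6 replicate 4 (2.36) and without P36 replicate 2 (2.05), when 1 protease gene was called higher at P36. Ctsf (-2.06) was called at low levels, and its call was lost without any 1 of P6 replicates 2 (-1.96) and 3 (-1.98) and P36 replicates 2 (-1.86), 3 (-1.81) and 4 (-1.92). Without P36 replicate 1 the log2 fold change of Ctsf was -2.88. The summed CPM of the 16 genes was 22500 to 27800 at P6 and 1620 to 2130 at P36.

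Of 36 tested genes for lysosomal glycosidases, sulfatases and lipid hydrolases, 24 were called higher at P6 and 0 higher at P36 (median log2 fold change -2.49). Galc, which removes galactose from ceramides, was at 338, 255, 383 and 336 CPM at P6 and 5.86, 5.33, 7.27 and 5.30 CPM at P36 (-5.78 ± 0.18, edgeR adjusted p = 4.40e-12). Its 4 P36 libraries lay between 5.30 and 7.27 CPM. Gusb, the beta-glucuronidase gene (-4.13), Glb1, the lysosomal beta-galactosidase gene (-3.88), Gla, the alpha-galactosidase gene (-3.62), and Hexa, the hexosaminidase alpha chain gene (-3.54), fell as well. The list kept between 22 and 25 calls over the alternatives tried. Of 19 tested genes for lysosomal membrane proteins, 10 were called higher at P6 and 0 higher at P36 (median log2 fold change -2.01). Slc17a5, the sialic acid exporter gene, was at 2868, 1641, 2659 and 2115 CPM at P6 and 37.5, 28.5, 27.7 and 35.8 CPM at P36 (-6.17 ± 0.30, edgeR adjusted p = 1.69e-10). Mcoln1, a calcium channel gene of the lysosome (-2.58), Ctns, the cystine exporter gene (-3.23), and Cln3 (-3.32) also fell. Of 16 proton pump subunit genes, 4 were called higher at P6 and 0 higher at P36 (median -1.35). Atp6v1a, the catalytic subunit gene, was at 455 ± 102 CPM (SD, n = 4) at P6 and 78.9 ± 5.78 CPM at P36 (-2.53 ± 0.15, edgeR adjusted p = 1.15e-09). Atp6v0a2, which encodes a membrane subunit of the pump, moved against its list, at 144, 113, 157 and 156 CPM at P6 and 471, 343, 253 and 412 CPM at P36, with a log2 fold change of 1.38 that was under the limit of a call.

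The pattern TCACGTG shown above stood in 96 of 1012 promoters of genes called higher at P6 (9.49%) and in 15 of 629 promoters of genes called higher at P36 (2.38%), beside 6.8% of all tested promoters. Among lysosomal genes with the pattern, 14 of 19 were called higher at P6, and among those without it 27 of 51. Lgmn, with 1 match whose first letter lies 50 bases before the annotated start, had the largest fall of the 7 promoters shown, and Mcoln1, with 2 runs of capitals, the smallest.

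Sucrase-isomaltase and trehalase rose at the brush border, and lactase fell. Of 13 tested genes for disaccharidases, sugar transporters and fructose enzymes, 6 were called higher at P36 and 3 higher at P6 (median log2 fold change 1.63). Sis, which encodes sucrase-isomaltase, was at 17.1, 7.88, 25.3 and 26.6 CPM at P6 and 2968, 1441, 772 and 892 CPM at P36 (6.30 ± 0.49, edgeR adjusted p = 3.53e-08). Treh, the trehalase gene, was at 1.48, 0.862, 1.63 and 0.0490 CPM at P6 and 221, 55.6, 12.2 and 59.8 CPM at P36 (6.45 ± 0.82, edgeR adjusted p = 6.47e-06). Slc2a5, the fructose transporter gene, was at 2.02, 1.81, 1.90 and 2.11 CPM at P6 and 56.5, 31.7, 9.68 and 29.4 CPM at P36 (4.01 ± 0.42, edgeR adjusted p = 8.11e-07). Khk, the fructokinase gene, rose with it (2.52). Mgam, the maltase-glucoamylase gene, was already at 1152, 937, 1118 and 1427 CPM at P6 and changed little (0.89). The 3 genes that fell include Lct and Slc2a2. Lct, the lactase of milk digestion, was at 509, 667, 367 and 1245 CPM at P6 and 35.3, 22.9, 0.0817 and 6.17 CPM at P36 (-5.43 ± 0.92, edgeR adjusted p = 0.000123). Slc2a2, which encodes the basolateral glucose transporter, was at 37.9, 34.1, 37.4 and 61.5 CPM at P6 and 3.54, 3.91, 0.123 and 1.90 CPM at P36 (-4.19 ± 0.52, edgeR adjusted p = 5.41e-06). For both genes P36 replicate 3 was the lowest of its group. Slc5a1, the sodium-coupled glucose transporter gene, was at 346, 344, 327 and 472 CPM at P6 and 2084, 985, 456 and 1082 CPM at P36 and was not called (1.63).

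Of 14 tested brush border peptidase genes, 5 were called higher at P36 and 1 higher at P6 (median log2 fold change 1.12). Anpep, aminopeptidase N, was at 634, 489, 669.6 and 447 CPM at P6 and 13997, 6213, 2371 and 7314 CPM at P36 (3.74 ± 0.40, edgeR adjusted p = 1.07e-06). Ggt1, which splits gamma-glutamyl bonds, was at 11.9, 6.25, 11.8 and 2.06 CPM at P6 and 783, 417, 159 and 482 CPM at P36 (5.85 ± 0.54, edgeR adjusted p = 1.99e-07). Dpep1, a dipeptidase gene, was at 7.65, 2.67, 14.6 and 0.638 CPM at P6 and 1078, 642, 337 and 748 CPM at P36 (6.78 ± 0.71, edgeR adjusted p = 8.01e-07). Mme, the neprilysin gene, was at 3.95, 3.71, 3.85 and 2.65 CPM at P6 and 343, 93.4, 6.74 and 56.8 CPM at P36 (5.14 ± 0.82, edgeR adjusted p = 7.20e-05). In each of these 4 genes P36 replicate 1 was the highest of its group and replicate 3 the lowest. Ace, the angiotensin converting enzyme, fell, at 1689, 2028, 1723 and 1625 CPM at P6 and 671, 173, 70.2 and 218 CPM at P36 (-2.64 ± 0.47, edgeR adjusted p = 0.000198). Of 17 tested peptide and amino acid transporter genes, 3 were called higher at P36 and 1 higher at P6 (median -0.13). Slc1a1, a glutamate transporter gene, was at 31.9 ± 10.4 CPM (SD, n = 4) at P6 and 237 ± 51.1 CPM at P36 (2.89 ± 0.22, edgeR adjusted p = 2.50e-08). Slc15a1, the peptide transporter gene, was at 55.9, 70.9, 83.1 and 99.7 CPM at P6 and 714, 214, 38.1 and 196 CPM at P36, with P36 replicate 3 within the P6 range and a log2 fold change of 1.91 that was not called. It was called without P6 replicate 4 (2.06) and without P36 replicate 2 (2.03), 3 (2.28) or 4 (2.06), and was 0.96 without P36 replicate 1. Slc6a19, which carries neutral amino acids, was at 481 to 511 CPM at P6 and 64.7 to 1005 CPM at P36 (-0.13). Slc6a14, a broad amino acid transporter gene, was called lower (-2.43, from 167, 55.9, 78.4 and 9.66 CPM at P6 and 21.9, 3.91, 16.8 and 15.0 CPM at P36), with overlapping libraries, and its call was lost without P6 replicate 1 (-1.73). The transporter genes called higher at P36 were 5 without P6 replicate 4 or without P36 replicate 3.

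The P36 libraries differed among themselves in these digestive genes more than the P6 libraries did. P36 replicate 1 was the highest P36 library in 14 of 14 peptidase genes and in 12 of 13 sugar genes, against 4474 of 13429 (33.3%) of all tested genes, and replicate 3 was the lowest in 14 of 14 and 13 of 13, against 4457 (33.2%) of all genes. The summed CPM of the peptidase genes ran from 7530 in P36 replicate 3 to 36300 in P36 replicate 1, and from 11800 to 13600 at P6. The order turned for cell cycle and ribosomal protein genes. Replicate 3 was the highest P36 library in 26 of 35 and 78 of 79 of them, and replicate 1 the lowest in 30 of 35 and 76 of 79. In Paneth cell genes replicate 3 was the highest in 18 of 18, but replicate 2 was the lowest in 16 of 18 and replicate 1 in 2. The part of the balance between crypt and villus cells in these orders was not tested.

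**Figure D4:**
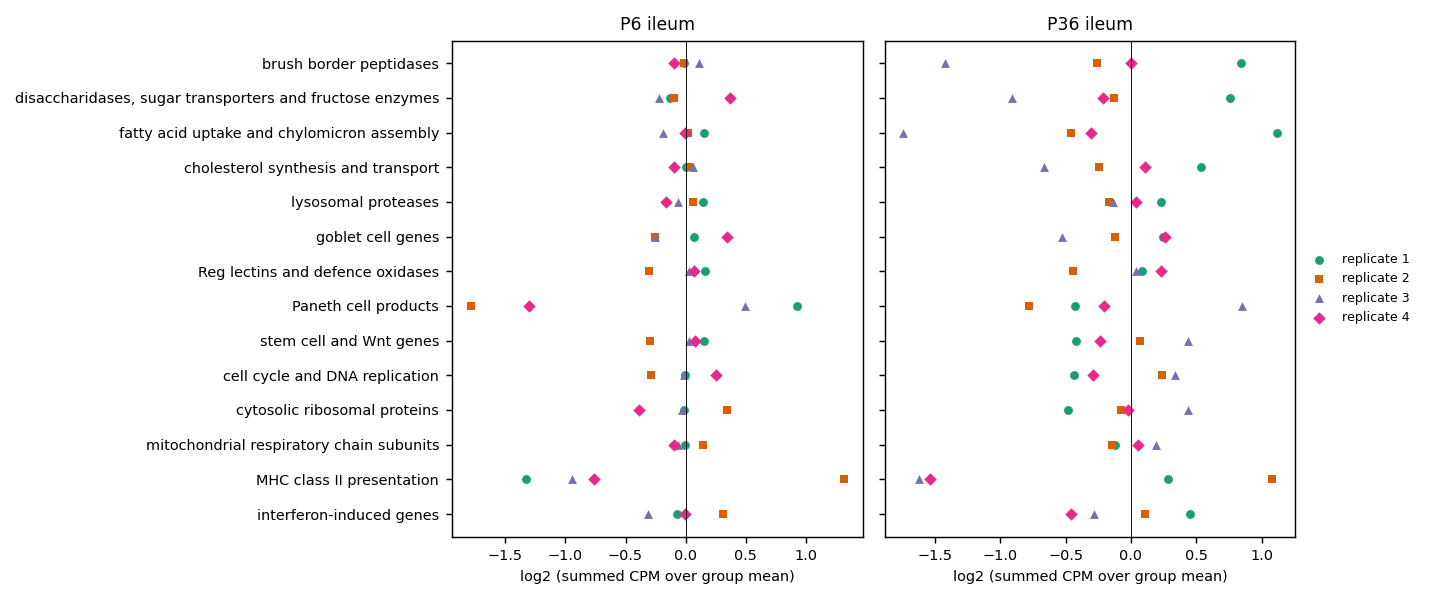
Log2 ratio of the summed CPM of 14 gene lists in each library to the mean of its group (x axis), at P6 (left) and P36 (right), with 1 marker per replicate. At P36 the digestive lists spread from replicate 3 (low) to replicate 1 (high), the cell cycle and ribosomal lists in the opposite order, and at P6 replicate 2 stands high for MHC class II presentation.

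Bile acid recovery is the task that marks the adult ileum. Of 9 tested genes of bile acid uptake and its nuclear receptor FXR, 4 were called higher at P36 and 1 higher at P6 (median log2 fold change 1.91). Fabp6 (chr11:43596040-43601562), which binds bile acids in the cytosol, was at 58.2, 10.9, 74.3 and 6.13 CPM at P6 and 9114, 6647, 3727 and 7683 CPM at P36 (7.51 ± 0.98, edgeR adjusted p = 8.67e-06). Slc10a2, which takes bile acids up from the lumen, was at 2.52, 0.775, 4.66 and 0.245 CPM at P6 and 559.7, 311, 158 and 211 CPM at P36 (7.26 ± 0.70, edgeR adjusted p = 3.59e-07). In both genes P6 replicates 1 and 3 lay above replicates 2 and 4. Slc51b, a subunit of the basolateral exporter, was at 28.7 ± 6.70 CPM (SD, n = 4) at P6 and 315 ± 86.0 CPM at P36 (3.46 ± 0.21, edgeR adjusted p = 2.39e-09). Its partner Slc51a was at 411, 268, 370.0 and 168 CPM at P6 and 1485, 1069, 646 and 1362 CPM at P36, without overlap and just under the limit (1.91). It was called without P36 replicate 3 (2.11) and without P6 replicate 1 (2.10) or 3 (2.02). Abcc3, a basolateral exporter gene, rose (4.33). Abcc2, which exports conjugates to the lumen, fell, at 1681, 1506, 1488 and 2933 CPM at P6 and 193, 72.0, 19.2 and 75.7 CPM at P36 (-4.40 ± 0.52, edgeR adjusted p = 3.44e-06). Nr1h4, the FXR gene, was at 188 to 276 CPM at P6 and 215 to 233 CPM at P36, a log2 fold change of 0.03. Fgf15, the hormone gene that FXR drives, was at 35.0, 92.1, 232 and 91.9 CPM at P6 and 82.3, 6.24, 1.59 and 25.2 CPM at P36. Its libraries overlapped, and its log2 fold change of -1.97 was not called. Without P36 replicate 1, the highest P36 library, it was -3.38 and called, as it was without P6 replicate 1 (-2.27) or 4 (-2.05). Without P36 replicate 1, 3 genes of the list were called higher at P6, and 2 without P6 replicate 1 or 4.

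Part of the genes of milk fat handling fell. Of 21 tested genes of fatty acid uptake and chylomicron assembly, 7 were called higher at P6 and 1 higher at P36 (median log2 fold change -0.95). Apoa4 was at 9809, 10821, 7362 and 3543 CPM at P6 and 235, 85.1, 7.76 and 89.7 CPM at P36 (-6.24 ± 0.77, edgeR adjusted p = 4.72e-06). Apoc3, a chylomicron apolipoprotein gene, was at 343 ± 149 CPM (SD, n = 4) at P6 and 22.9 ± 17.1 CPM at P36 (-3.91 ± 0.50, edgeR adjusted p = 7.78e-06). Plin2, which coats lipid droplets, was at 669, 672, 480.2 and 413 CPM at P6 and 41.8, 56.9, 54.3 and 49.1 CPM at P36 (-3.47 ± 0.19, edgeR adjusted p = 8.56e-10). Apob, the structural protein of chylomicrons, was at 8306, 4759.9, 5819.5 and 13510.0 CPM at P6 and 4212, 1172, 483 and 1054 CPM at P36 (-2.23 ± 0.52, edgeR adjusted p = 0.00183), and its call was lost without P6 replicate 4 (-1.86) and without P36 replicate 3 (-1.91). Cd36, a fatty acid receptor gene, was low at both ages, at 1.52 to 14.5 CPM at P6 and 0.0817 to 1.03 CPM at P36 (-3.15). Fabp2, the cytosolic fatty acid binding protein of enterocytes, moved the other way, at 381, 439, 239 and 949 CPM at P6 and 7270.2, 1576, 471 and 1725 CPM at P36 (2.46 ± 0.62, edgeR adjusted p = 0.0032). P36 replicate 1 lay 4-fold above the next P36 library, and without it the log2 fold change was 1.33 and not called, which left 0 genes of the list called higher at P36. Of 26 tested genes of fatty acid oxidation and ketogenesis, 2 (7.69%) were called higher at P6 and 1 (3.85%) higher at P36 (median -0.39). Over all tested genes these shares were 10.0% and 6.40%. Ucp2, a mitochondrial carrier gene, rose (2.58). The genes called higher at P36 were 2 without P36 replicate 3 and without any 1 of P6 replicates 1, 2 and 3.

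Of 6 tested gluconeogenesis genes, 3 were called higher at P6 and 0 higher at P36 (median log2 fold change -2.40). Fbp1, fructose bisphosphatase, was at 362, 397, 328 and 306 CPM at P6 and 7.08, 12.6, 11.4 and 7.76 CPM at P36 (-5.16 ± 0.25, edgeR adjusted p = 1.81e-10). G6pc, glucose-6-phosphatase, was at 130.2, 137, 120.2 and 186 CPM at P6 and 5.92, 2.495, 1.02 and 5.22 CPM at P36 (-5.32 ± 0.56, edgeR adjusted p = 9.36e-07). Pck1, which makes phosphoenolpyruvate from oxaloacetate, was at 292, 460.2, 540.3 and 282 CPM at P6 and 86.4, 36.9, 11.7 and 23.8 CPM at P36 (-3.31 ± 0.51, edgeR adjusted p = 4.50e-05). The libraries of the 2 ages did not overlap for these 3 genes. Pcx, pyruvate carboxylase, had a positive log2 fold change of 1.97 that was not called. It was called under 7 of 20 alternatives, among them those without P6 replicate 1 (2.14), 2 (2.05) or 3 (2.15) or without P36 replicate 2 (2.05) or 3 (2.22), and was 1.63 without P6 replicate 4. Of 26 tested cholesterol genes, 2 (7.69%) were called higher at P36 and 0 higher at P6 (median 0.74). Over all tested genes these shares were 6.40% and 10.0%. Sqle, squalene epoxidase, was at 59.3 ± 12.3 CPM (SD, n = 4) at P6 and 256 ± 82.9 CPM at P36 (2.11 ± 0.21, edgeR adjusted p = 4.78e-07), and its call was lost without P36 replicate 1 (1.93). The list had 1 call without that library or without P6 replicate 4. Of 11 tested genes of arginine synthesis and glutamine use, 2 were called in each direction. Arg2, the mitochondrial arginase, rose from 17 to 3774 counts over the 4 libraries of an age, and Asl, which makes arginine, fell (-2.61). Cps1 (-0.92) and Otc (1.00), which make citrulline in mitochondria, were not called. Without P6 replicate 4 or P36 replicate 3, 1 gene of the list was called higher at P36.

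Paneth cell products rose the most of the lists compiled. Of 18 tested genes, 17 were called higher at P36 and 0 higher at P6 (median log2 fold change 6.79). Lyz1 was at 18.9, 16.9, 20.3 and 17.7 CPM at P6 and 3799, 3672, 10235 and 5505 CPM at P36 (8.29 ± 0.45, edgeR adjusted p = 5.95e-10). The P6 libraries lay between 16.9 and 20.3 CPM. The RNA of Pla2g2a, a phospholipase gene, rose from 17 to 4653 counts. Mmp7, which processes alpha-defensins, was at 4.64, 7.58, 3.90 and 13.2 CPM at P6 and 196, 159, 334 and 211 CPM at P36 (4.93 ± 0.49, edgeR adjusted p = 4.46e-07). Ang4, an angiogenin gene of Paneth cells, was at 9.68, 9.22, 4.88 and 9.12 CPM at P6 and 225, 185, 645 and 315 CPM at P36 (5.38 ± 0.54, edgeR adjusted p = 4.97e-07). Defa21 was at 4.24 ± 1.18 CPM (SD, n = 4) at P6 and 1305 ± 861 CPM at P36 (8.26 ± 0.59, edgeR adjusted p = 1.25e-08). P36 replicate 3 was the highest library for all 3 of these genes. Itln1, intelectin, was at 619.9, 10.3, 435 and 8.09 CPM at P6 and 1252, 1229, 3402 and 1930.0 CPM at P36, with P6 replicates 1 and 3 far above replicates 2 and 4, and it was not called (2.86 ± 1.40, edgeR adjusted p = 0.0936). It was called by DESeq2 and with only P6 replicates 2 and 4, and its log2 fold change lay between 1.89 and 7.76 over the alternatives. These P6 libraries differ in the same way in their mouse identifiers, whose prefix is shared by replicates 1 and 3 and by replicates 2 and 4. The labels do not say what the prefix stands for.

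Of 18 tested Reg lectin and defence oxidase genes, 15 were called higher at P36 and 0 higher at P6 (median log2 fold change 5.68). Duox2, an oxidase that releases hydrogen peroxide, was at 4.79, 1.29, 6.29 and 1.47 CPM at P6 and 400.0, 309.9, 305 and 372 CPM at P36 (6.66 ± 0.47, edgeR adjusted p = 1.05e-08), and its maturation factor Duoxa2 rose with it (6.74). Nos2, inducible nitric oxide synthase, was at 1.97, 0.948, 2.28 and 0.539 CPM at P6 and 313, 96.9, 80.0 and 211 CPM at P36 (6.94 ± 0.76, edgeR adjusted p = 1.41e-06). Reg3a was at 0.967 ± 0.677 CPM (SD, n = 4) at P6 and 87.5 ± 19.8 CPM at P36 (6.51 ± 0.44, edgeR adjusted p = 6.07e-09). Reg4 had a negative log2 fold change of -1.36, from 144, 102, 153 and 108 CPM at P6 and 22.4, 44.3, 82.9 and 48.0 CPM at P36, against its list. Retnlb, an antibacterial resistin-like gene, had no count at P6 and 266 counts at P36. Over the 22 genes of the list in the files the summed CPM rose from 1810 to 2500 at P6 to 42800 to 68200 at P36, the greater part of it Reg3b and Reg3g.

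Goblet cell genes moved by less. Of 16 tested, 5 were called higher at P36 and 1 higher at P6 (median log2 fold change 1.86). Zg16 was at 8.93, 0.991, 19.8 and 0.932 CPM at P6 and 4436, 3775, 3358 and 4917 CPM at P36 (9.08 ± 1.14, edgeR adjusted p = 5.91e-06). Clca1, a mucus-processing protease, was at 519.8, 247, 295 and 395 CPM at P6 and 2638, 2495, 1794 and 3639 CPM at P36 (2.86 ± 0.31, edgeR adjusted p = 1.46e-06). Spink4 was at 93.0 ± 16.6 CPM (SD, n = 4) at P6 and 839 ± 279.8 CPM at P36 (3.17 ± 0.24, edgeR adjusted p = 1.92e-08). Agr2, which folds mucins, was at 190.5 ± 49.7 CPM (SD, n = 4) at P6 and 842 ± 200.4 CPM at P36 (2.15 ± 0.19, edgeR adjusted p = 1.39e-07). Without P36 replicate 3 the value for Agr2 was 2.00 and not called. Muc2, the mucin of intestinal mucus, was at 842, 619, 803 and 648 CPM at P6 and 2967, 2996, 992 and 3714 CPM at P36, without overlap but under the limit of a call (1.87, 2.15 and called without P36 replicate 3). The number of goblet cell genes called higher at P36 lay between 5 and 11 over the alternatives tried and was 8 without P6 replicate 1. The call higher at P6 was lost without P6 replicate 4 or P36 replicate 3. Of 13 tested tuft cell genes, 7 were called higher at P36 and 0 higher at P6 (median 2.04). Trpm5, the taste channel of tuft cells, was at 0, 0.215, 0.163 and 0.0981 CPM at P6 and 7.63, 3.29, 3.23 and 2.77 CPM at P36 (5.06 ± 0.50, edgeR adjusted p = 4.09e-07). Rgs13 went from 0 to 133 counts. Dclk1 was not called (1.78), with P6 replicate 2 highest among the P6 libraries in 0.395, 2.46, 0.325 and 0.785 CPM at P6. Without that library its log2 fold change was 2.76 and called. The summed tuft cell CPM of P6 replicate 2 was 13.1 against 4.34 to 5.91 in the other P6 libraries. Of 19 tested enteroendocrine genes, 1 was called higher at P6 and 0 higher at P36 (median -0.42). That gene was Nts, the neurotensin gene, at 185, 157, 166 and 274 CPM at P6 and 39.6, 33.1, 37.2 and 52.5 CPM at P36 (-2.27 ± 0.28, edgeR adjusted p = 4.16e-06). Chga (-0.73) and Gcg (0.52), the granin and proglucagon genes, were not called. Without P36 replicate 1, P36 replicate 2 or P6 replicate 3, 1 gene of the list was called higher at P36.

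Of 21 tested stem cell and Wnt genes, 2 (9.52%) were called higher at P36 and 1 (4.76%) higher at P6 (median log2 fold change 0.89). Over all tested genes these shares were 6.40% and 10.0%. Lgr5, the receptor that marks crypt base stem cells, was at 44.2, 23.9, 41.5 and 35.5 CPM at P6 and 12.0, 18.9, 29.2 and 18.9 CPM at P36 and was not called (-0.87). Olfm4 was at 77.2 to 355 CPM at P6 and 306 to 757 CPM at P36 (1.18). Myb, a transcription factor of crypt progenitors, was at 19.1, 10.6, 18.4 and 11.6 CPM at P6 and 61.6, 100.3, 106 and 76.6 CPM at P36 (2.54 ± 0.22, edgeR adjusted p = 1.16e-07). Ephb3, a receptor that keeps crypt cells in place, was at 3.31, 2.33, 2.93 and 0.147 CPM at P6 and 13.2, 23.0, 21.5 and 16.1 CPM at P36 (3.08 ± 0.49, edgeR adjusted p = 6.41e-05). Notum, a secreted Wnt inhibitor, fell, at 8.84, 14.4, 13.9 and 2.06 CPM at P6 and 0, 0.0567, 0.327 and 0.0791 CPM at P36 (-6.15 ± 0.76, edgeR adjusted p = 4.93e-06). Of 35 tested cell cycle and DNA replication genes, 8 were called higher at P36 and 0 higher at P6 (median 1.66). Ccnd1, cyclin D1, was at 36.3 ± 6.76 CPM (SD, n = 4) at P6 and 246 ± 63.8 CPM at P36 (2.76 ± 0.23, edgeR adjusted p = 8.43e-08). Cdc20, which activates the anaphase-promoting complex, was at 11.4 ± 4.28 CPM (SD, n = 4) at P6 and 72.3 ± 13.9 CPM at P36 (2.66 ± 0.25, edgeR adjusted p = 2.37e-07). Mki67 (1.57) and Pcna (0.43) were not called, and their libraries overlapped. Of 77 tested respiratory chain genes, 2 were called higher at P36 and 0 higher at P6 (median 0.98): Cox7a1 (3.01) and Cyc1 (2.18), the latter lost without P6 replicate 4 (1.96). Of 79 tested genes for cytosolic ribosomal proteins, 1 was called higher at P36 and 0 higher at P6 (median 0.80). It was Rpl29, at 12.3, 189, 17.2 and 24.7 CPM at P6 and 288, 350.3, 416 and 362 CPM at P36, where P6 replicate 2 lay apart, and its log2 fold change of 2.54 was 4.29 without that library. The call was lost without P6 replicate 1 (2.22), 3 (2.26) or 4 (2.28), when 0 genes of the list were called. The list holds GC-rich genes such as Rpl36, at 79.3, 70.6, 80.6 and 0.196 CPM at P6 with P6 replicate 4 lowest, and Rps2, at 367, 347, 386 and 140.0 CPM at P6. Without that library the median of the ribosomal list was 0.68.

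MHC class II genes rose in the ileum. Of 9 tested genes for MHC class II presentation, 8 were called higher at P36 and 0 higher at P6 (median log2 fold change 4.63). Cd74, the invariant chain gene, was at 4.10, 31.7, 6.51 and 5.20 CPM at P6 and 634, 1152, 166 and 169.6 CPM at P36 (5.47 ± 0.94, edgeR adjusted p = 0.000145). H2-Ab1 was at 1.43, 10.1, 1.79 and 2.89 CPM at P6 and 184, 287, 43.8 and 52.9 CPM at P36 (5.11 ± 0.82, edgeR adjusted p = 7.40e-05). Ciita, the regulator of class II genes, was at 0.0987, 0.560, 0.271 and 0.294 CPM at P6 and 12.5, 24.9, 8.01 and 9.34 CPM at P36 (5.43 ± 0.61, edgeR adjusted p = 1.91e-06). P6 replicate 2 was the highest P6 library for each of the 3 genes, and P36 replicates 3 and 4 were the lowest P36 libraries. Without P6 replicate 2 the median was 5.69, with 8 of 10 tested genes called. Of 8 tested B and plasma cell markers, 7 were called higher at P36 (median 3.30), and of 13 tested T and intraepithelial lymphocyte markers 1 was. The B and plasma cell markers summed to 1.52 to 4.07 CPM at P6 and to 7.35, 18.6, 54.5 and 68.1 CPM in the 4 P36 libraries, where Cd79a was at 0.221, 2.04, 7.47 and 8.94 CPM at P36. P36 replicate 1 was the lowest for Cd79a and the second highest for Cd74. T and intraepithelial lymphocyte markers summed to 5.37 to 17.2 CPM and 10.4 to 22.7 CPM, with Cd3e below 1 CPM in every library (0.0987 to 0.392 CPM at P6 and 0.166 to 0.871 CPM at P36). Myeloid markers summed to 158 to 358 CPM at P6 and 2.49 to 9.50 CPM at P36, and the sum at P6 was mostly Csf1r, at 239, 333, 249.7 and 152 CPM at P6 and 0.608, 1.64, 0.939 and 1.11 CPM at P36 (-7.83 ± 0.43, edgeR adjusted p = 6.76e-10). In the same way Ret, the receptor gene of enteric neurons, carried the enteric neuron sum, at 208, 205, 216 and 111 CPM at P6 and 9.34, 5.05, 6.86 and 8.94 CPM at P36 (-4.62 ± 0.33, edgeR adjusted p = 1.03e-08). The part of other cells in these changes was not tested.

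Interferon-induced genes moved in both directions. Of 36 tested, 9 were called higher at P36 and 4 higher at P6 (median log2 fold change 0.49). Those that fell were 3 genes of the Ifit family, whose proteins bind foreign RNA, and Gbp7, which encodes a guanylate binding protein. Ifit1 was at 295, 311, 242 and 367 CPM at P6 and 45.9, 24.4, 13.5 and 9.66 CPM at P36 (-3.70 ± 0.41, edgeR adjusted p = 1.64e-06). Ifit2 was at 25.6 ± 9.66 CPM (SD, n = 4) at P6 and 4.42 ± 1.43 CPM at P36 (-2.52 ± 0.31, edgeR adjusted p = 4.91e-06). Ifit3 was at 24.2, 60.6, 11.9 and 20.4 CPM at P6 and 8.29, 5.73, 3.96 and 3.56 CPM at P36 (-2.44 ± 0.43, edgeR adjusted p = 0.000192). Gbp7 was at 45.6, 50.5, 33.5 and 70.3 CPM at P6 and 8.62, 9.53, 5.31 and 2.295 CPM at P36 (-2.95 ± 0.44, edgeR adjusted p = 3.23e-05). The Ifit3 call was lost without P6 replicate 2 (-1.80). Those that rose include Oas3, Psmb8 and Gbp2. Oas3, a sensor of double-stranded RNA, was at 1.04, 3.49, 1.03 and 0.588 CPM at P6 and 57.4, 24.8, 11.2 and 12.3 CPM at P36 (4.08 ± 0.62, edgeR adjusted p = 4.58e-05). Psmb8, an immunoproteasome subunit gene, was at 12.2 ± 6.76 CPM (SD, n = 4) at P6 and 91.4 ± 31.1 CPM at P36 (2.90 ± 0.40, edgeR adjusted p = 1.51e-05). Gbp2 was at 0.395, 3.36, 0.705 and 0.392 CPM at P6 and 10.1, 12.2, 4.04 and 3.96 CPM at P36 (2.62 ± 0.64, edgeR adjusted p = 0.00269). Of the 18 interferon-induced genes with the doubled GAAA in the promoter, 3 were called higher at P36 and 3 higher at P6, and of the 9 without it 4 and 1. P6 replicate 2 was the highest P6 library in 28 of the 36 genes, against 3348 of 13429 (24.9%) over all genes, and P36 replicate 1 the highest P36 library in 26 of 36. Of 16 tested butyrophilin-like genes, chemokines and survival cytokines, 5 were called higher at P36 and 0 higher at P6 (median 1.03). Pigr, which carries IgA to the lumen, was at 87.3, 76.9, 72.2 and 89.1 CPM at P6 and 2399.5, 2323, 3548 and 2931 CPM at P36 (edgeR adjusted p = 8.00e-11). Ccl25, the chemokine that draws lymphocytes to the small intestine, was at 71.1 ± 11.8 CPM (SD, n = 4) at P6 and 384 ± 55.1 CPM at P36 (2.44), and Tnfsf13, the plasma cell survival factor APRIL, went from 11 to 328 counts. Btnl1, which maintains intraepithelial lymphocytes, was not called (1.54).

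Of 32 tested transcription factors of epithelial identity and of the suckling state, 2 (6.25%) were called higher at P36 and 4 (12.5%) higher at P6. Over all tested genes these shares were 6.40% and 10.0%. The median log2 fold change of the list was 0.10. Prdm1, which encodes Blimp1, a repressor that maintains the suckling epithelium, was at 290.1, 259, 269 and 391 CPM at P6 and 10.3, 3.91, 2.90 and 5.94 CPM at P36 (-5.72 ± 0.35, edgeR adjusted p = 2.26e-09). Creb3l3, a regulator of lipid genes, was at 441, 493, 331 and 249 CPM at P6 and 111, 21.9, 2.08 and 23.2 CPM at P36 (-3.26 ± 0.71, edgeR adjusted p = 0.00106). Among the P36 libraries replicate 3 was the lowest for both genes and replicate 1 the highest. Vdr, the vitamin D receptor gene, rose, at 92.9, 83.5, 83.1 and 83.5 CPM at P6 and 460.4, 412, 361 and 395 CPM at P36 (2.25 ± 0.15, edgeR adjusted p = 5.34e-09). The identity factors changed little, with log2 fold changes of 0.39 for Hnf4a and 0.30 for Cdx2. Gata4, which marks proximal small intestine, was at 8.98, 18.4, 3.25 and 34.7 CPM at P6 and 31.6, 5.56, 0.735 and 2.295 CPM at P36, with P36 replicate 1 apart, and its log2 fold change went from -0.70 to -2.53 without that library, which was called. Without P6 replicate 4 or P36 replicate 4, 1 gene of the list was called higher at P36.

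Most tested genes of secreted plasma proteins better known from liver and yolk sac fell. Of 21, 13 were called higher at P6 and 0 higher at P36 (median log2 fold change -4.66). Afp (chr5:90490714-90508907), alpha-fetoprotein, was at 1736, 705, 817 and 564 CPM at P6 and 0.498, 1.02, 0.776 and 0.871 CPM at P36 (-10.24 ± 0.47, edgeR adjusted p = 1.15e-10). F10, coagulation factor X, was at 56.3, 88.7, 56.9 and 54.1 CPM at P6 and went to 5 counts over the 4 P36 libraries. Fga, the fibrinogen alpha chain gene, went from 2951 to 5 counts. Trf, transferrin, was at 86.0, 180.3, 76.1 and 134 CPM at P6 and 0.8293, 1.25, 1.10 and 2.69 CPM at P36 (-6.39 ± 0.63, edgeR adjusted p = 4.70e-07). Ttr, transthyretin, was at 106, 214, 74.9 and 35.4 CPM at P6 and 1.77, 2.67, 4.04 and 2.77 CPM at P36 (-5.24 ± 0.47, edgeR adjusted p = 1.50e-07). Of 12 tested imprinted and fetal growth genes, 10 were called higher at P6 and 0 higher at P36 (median -6.28). Igf2, the fetal growth factor, was at 677, 754, 721 and 764 CPM at P6 and 7.74, 1.98, 0.980 and 1.82 CPM at P36 (-7.86 ± 0.54, edgeR adjusted p = 7.71e-09). Cdkn1c, which encodes the cell cycle inhibitor p57, was at 164, 213, 149.7 and 209.6 CPM at P6 and 1.99, 1.93, 1.14 and 2.37 CPM at P36 (-6.65 ± 0.27, edgeR adjusted p = 3.20e-11). Igf2bp3 (-6.76), an RNA binding protein of fetal tissue, Plagl1 (-6.61), Peg3 (-5.22) and the noncoding Meg3 (-5.95) fell as well. The 2 genes not called were Hmga2 (-1.10) and Nnat (-0.89). Neither list changed its number of calls when P6 replicate 2 or P6 replicate 4 was left out, and without another library they had up to 17 and 11 calls.

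Of 28 tested genes for sodium, chloride, bicarbonate and water transport, 9 were called higher at P36 and 2 higher at P6 (median log2 fold change 0.65). Atp1b1, the beta subunit of the sodium pump, was at 286 ± 34.5 CPM (SD, n = 4) at P6 and 1501 ± 414 CPM at P36 (2.39 ± 0.22, edgeR adjusted p = 1.61e-07). Kcnn4, a basolateral potassium channel gene, was at 4.09 ± 1.97 CPM (SD, n = 4) at P6 and 42.2 ± 7.69 CPM at P36 (3.37 ± 0.32, edgeR adjusted p = 3.36e-07). Among 21 tested claudin and junction genes, 2 (9.52%) were called higher at P36 and 3 (14.3%) higher at P6 (median 0.11). Over all tested genes these shares were 6.40% and 10.0%. Cldn15, which forms sodium pores, was at 36.3, 29.3, 41.7 and 20.009 CPM at P6 and 429, 348, 382 and 378 CPM at P36 (3.59 ± 0.20, edgeR adjusted p = 6.54e-10). Cldn3 rose with it (3.13). Cldn8, a barrier-forming claudin, was at 183, 179.9, 199.8 and 179 CPM at P6 and 8.85, 8.68, 15.1 and 11.9 CPM at P36 (-4.05 ± 0.24, edgeR adjusted p = 1.28e-09). Cldn4 was at 424, 366, 364 and 50.9 CPM at P6 and 48.7, 44.9, 21.9 and 61.8 CPM at P36 (-2.77), with P6 replicate 4 within the P36 range. Of 23 tested genes for iron, zinc and copper handling, 4 were called higher at P6 and 1 higher at P36 (median -0.87). Slc11a2, the iron importer DMT1, was at 916, 832, 756 and 699 CPM at P6 and 79.1, 53.2, 46.6 and 82.7 CPM at P36 (-3.61 ± 0.20, edgeR adjusted p = 9.44e-10). Slc40a1, the iron exporter ferroportin, was at 1019, 1172, 736 and 1981 CPM at P6 and 97.9, 120.2, 272 and 256 CPM at P36 (-2.72 ± 0.44, edgeR adjusted p = 7.61e-05). Hmox1, heme oxygenase, fell (-5.66). Steap1, a metalloreductase gene, rose at low levels (3.96), and 2 genes of the list were called higher at P36 without P6 replicate 2.

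Of 15 tested vitamin A genes, 5 were called in each direction (median log2 fold change -0.07). Stra6l, a retinol transporter gene, was at 544, 502, 534 and 480.3 CPM at P6 and 12.4, 18.5, 16.4 and 16.4 CPM at P36 (-5.01 ± 0.14, edgeR adjusted p = 2.13e-12). Lrat, which stores retinol as esters, fell (-2.59). Rbp7, a retinol binding protein gene, went from 16 to 1295 counts, Aldh1a1, which makes retinoic acid, was at 22.5 ± 10.1 CPM (SD, n = 4) at P6 and 183 ± 87.9 CPM at P36 (3.03 ± 0.47, edgeR adjusted p = 4.91e-05). Bco1, which cleaves carotene, was at 0.592 ± 0.452 CPM (SD, n = 4) at P6 and 9.37 ± 1.87 CPM at P36 (3.99 ± 0.54, edgeR adjusted p = 1.25e-05). Of 7 tested genes for calcium, phosphate and vitamin D, 2 were called higher at P36 and 1 higher at P6. S100g, the vitamin D target calbindin-D9k, was at 94.2, 141, 108 and 148 CPM at P6 and 10.4, 28.8, 24.6 and 20.023 CPM at P36 (-2.55 ± 0.26, edgeR adjusted p = 6.41e-07), falling while Vdr rose. Without P6 replicate 3 or P36 replicate 4, 2 genes of this list were called higher at P6. Of 19 tested genes of nucleoside transport and purine breakdown, 4 were called in each direction. Upp1, uridine phosphorylase, was at 1.28, 0.474, 2.39 and 0.441 CPM at P6 and 613, 387, 141 and 306 CPM at P36 (8.32 ± 0.58, edgeR adjusted p = 8.52e-09). Ada, adenosine deaminase, was at 1.58, 1.42, 1.84 and 0.785 CPM at P6 and 126, 35.1, 10.2 and 78.6 CPM at P36 (5.47 ± 0.81, edgeR adjusted p = 3.36e-05). Nt5e, which makes adenosine outside the cell, fell (-5.50), and so did Alpi, intestinal alkaline phosphatase, at 2699, 2704, 2636 and 1468 CPM at P6 and 550.2, 168, 43.9 and 203 CPM at P36 (-3.30).

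Of 23 tested terminal glycosyltransferase genes, 10 were called higher at P36 and 2 higher at P6 (median log2 fold change 1.62). St3gal1, a sialyltransferase gene, was at 816, 784, 895 and 618 CPM at P6 and 10.8, 13.2, 16.7 and 15.3 CPM at P36 (-5.80 ± 0.22, edgeR adjusted p = 1.71e-11). B4galnt2, which completes the Sd(a) glycan, was at 111 ± 29.3 CPM (SD, n = 4) at P6 and 901 ± 160.0 CPM at P36 (3.02 ± 0.23, edgeR adjusted p = 1.97e-08). Fut2, which adds the terminal fucose of the intestinal surface, was at 11.4, 5.47, 15.3 and 7.85 CPM at P6 and 131, 59.1, 51.8 and 140.5 CPM at P36 (3.26 ± 0.58, edgeR adjusted p = 0.000189). B3galt5 was at 0.395, 0.689, 0.488 and 1.62 CPM at P6 and 48.0, 11.2, 38.2 and 60.6 CPM at P36 (5.61 ± 0.52, edgeR adjusted p = 2.19e-07). Of 19 tested cytochrome P450 genes, 12 were called higher at P36 and 1 higher at P6 (median 3.46). Cyp4f14 was at 8.39, 7.02, 12.0 and 2.501 CPM at P6 and 1563, 600.1, 327 and 728 CPM at P36 (6.75 ± 0.53, edgeR adjusted p = 3.32e-08). Cyp4b1 was at 1.04, 0.775, 1.41 and 0.0981 CPM at P6 and 207, 31.9, 6.29 and 27.5 CPM at P36 (6.36 ± 0.93, edgeR adjusted p = 2.91e-05), with P36 replicate 1 far above the others. Cyp2c68 fell, at 161 ± 56.6 CPM (SD, n = 4) at P6 and 26.0 ± 5.44 CPM at P36 (-2.62 ± 0.24, edgeR adjusted p = 1.93e-07). Cyp genes of 1 family share sequence, and single members are uncertain. Of 17 tested circadian clock genes, 4 were called higher at P6 and 1 higher at P36 (median -0.76). The authors do not state the time of day of collection, which cannot be told apart from age in these genes. Nr1d1, the repressor Rev-erb alpha, was at 3.41, 4.22, 3.58 and 1.13 CPM at P6 and 129.98, 76.7, 48.2 and 78.6 CPM at P36 (4.75 ± 0.35, edgeR adjusted p = 2.01e-08). Per2 was at 194, 144, 197 and 102 CPM at P6 and 14.0, 19.4, 6.37 and 16.3 CPM at P36 (-3.51 ± 0.30, edgeR adjusted p = 9.24e-08). Arntl, the activator Bmal1, was not called (1.79). Without P36 replicate 1, 7 clock genes were called higher at P6, and without P6 replicate 4, 2 were called higher at P36. Of 19 tested genes of glucocorticoid response and steroid metabolism, 4 were called higher at P36 and 3 higher at P6. Fkbp5, a target of the glucocorticoid receptor, was at 4.69, 3.71, 3.63 and 4.02 CPM at P6 and 69.3, 61.8, 46.6 and 62.2 CPM at P36 (3.90 ± 0.30, edgeR adjusted p = 2.87e-08). Hsd11b2, which inactivates corticosterone, was at 1.92 ± 1.18 CPM (SD, n = 4) at P6 and 43.3 ± 9.51 CPM at P36 (4.49 ± 0.40, edgeR adjusted p = 1.43e-07). Hsd17b6 rose from 7 to 644 counts. Cyp11a1, the first enzyme of steroid synthesis, went from 2123 to 2 counts.

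The change of the ileum was then set against that of the jejunum of the same mice, as the difference between the 2 log2 fold changes (ileum minus jejunum). The jejunum had 1056 genes (7.86%) called higher at P36 and 1153 (8.59%) called higher at P6. The difference itself had an adjusted p below 0.05 for 1167 genes (8.69%), more positive in the ileum for 494 (3.68%) and more negative for 673 (5.01%), and 453 of the 1167 exceeded 2. Of the 1345 genes that fell in the ileum, 264 differed. The absolute log2 fold change was larger in the ileum than in the jejunum for 206 of them and not larger for 58. Of the 859 that rose, 148 differed, 92 with the larger absolute log2 fold change in the ileum. These splits leave the direction of the jejunal change aside, so a gene that moved the opposite way there can stand on either side. With the mouse as a replicate block the number of genes was 1294, and without P6 ileum replicate 4 it was 1912.

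**Figure D5:**
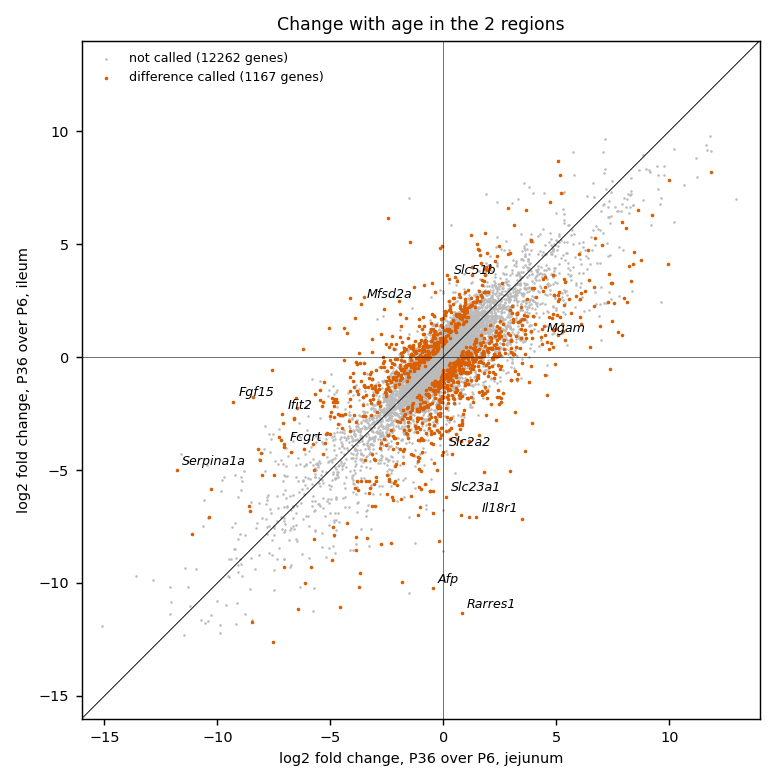
Log2 fold change from P6 to P36 in the ileum (y axis) against that in the jejunum (x axis) for the 13429 tested genes, with the 1167 genes whose difference was called in orange and a line where both are equal. Afp, Rarres1, Il18r1 and Slc23a1 lie far below the line, and Serpina1a, Mfsd2a and Fgf15 far above it.

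The differences were ranked only among genes also called with age in the ileum and with a mean of at least 10 CPM in some group. The 8 most negative of these were those of Rarres1, Adam12, Afp, Il18r1, Gm766, Stab2, Gpr151 and Slc23a1. Afp was at 12.6 ± 4.34 CPM (SD, n = 4) at P6 and 9.05 ± 1.25 CPM at P36 in the jejunum, against 956 ± 530.2 CPM (SD, n = 4) at P6 and 0.791 ± 0.220 CPM at P36 in the ileum, a difference of -9.76 ± 0.54, edgeR adjusted p = 3.40e-08. Rarres1, a carboxypeptidase inhibitor gene, was at 99.5, 102, 101 and 48.4 CPM at P6 in the ileum, with 2 counts over the P36 ileum libraries, and at 0.0474 ± 0.0366 CPM (SD, n = 4) at P6 and 0.0878 ± 0.0724 CPM at P36 in the jejunum. Il18r1, an interleukin 18 receptor chain gene, was at 77.7, 130.2, 105 and 85.9 CPM at P6 and 0.498, 0.567, 1.02 and 0.791 CPM at P36 in the ileum and at 0.339 ± 0.239 CPM (SD, n = 4) at P6 and 0.916 ± 0.504 CPM at P36 in the jejunum (-8.54 ± 0.60, edgeR adjusted p = 3.13e-07). Adam12 (-10.62), Gm766 (-8.11), Stab2 (-6.51) and Gpr151 (-6.46) followed, each with at most 6 counts over the 4 P36 ileum libraries, so that the size of their difference depends on the prior count. The differences for Stab2 and Gpr151 were lost without P36 replicate 2 or 3, that for Stab2 also without P36 replicate 4 and that for Gpr151 without P36 replicate 1. Slc23a1, a vitamin C transporter gene, was near 100 CPM in both regions at P6. In the ileum it was at 133, 103, 102 and 108 CPM at P6 and 4.09, 1.47, 0.163 and 0.396 CPM at P36, and in the jejunum at 99.954 ± 16.3 CPM (SD, n = 4) at P6 and 108 ± 24.9 CPM at P36 (-6.29 ± 0.73, edgeR adjusted p = 5.64e-05).

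Several digestive genes parted between the regions. Slc2a2 stayed at 325 ± 19.1 CPM (SD, n = 4) at P6 and 324 ± 32.0 CPM at P36 in the jejunum, a difference of -4.19 ± 0.67, edgeR adjusted p = 0.0009. Mgam was at 202 ± 16.4 CPM (SD, n = 4) at P6 and 4059 ± 449 CPM at P36 in the jejunum, where the P6 level lay below that of the ileum (-3.44 ± 0.33, edgeR adjusted p = 8.34e-06). Sis rose in both regions and less in the ileum (-2.92 ± 0.57, edgeR adjusted p = 0.00424). Lct did not reach the threshold, with a difference of -3.64. Abcc2 (-3.26), Slc6a14 (-5.61), G6pc (-2.35) and Cyp2c68 (-2.48) were also more negative in the ileum. The difference for G6pc was lost under 6 of 21 alternatives, among them those without P6 replicate 1 or 2 or P36 replicate 2 or 3, and that for Slc6a14 with counts thinned to the smallest library. Among lysosomal genes Mcoln3 fell further in the ileum (-3.28). Galc fell further in the ileum, from a P6 mean that was higher there (-1.85 ± 0.22, edgeR adjusted p = 6.37e-05), and so did Gla (-1.01), Atp6v1a (-0.84) and Ctsf (-4.16), which rose in the jejunum. For Lgmn (-0.01), Glb1 (-0.05), Dab2 (-0.17) and Gusb (-0.44) no difference was called.

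Positive differences were found too, among them those of Fcgrt, Mfsd2a and Ephb3, which were higher in the jejunum than in the ileum at P6. Fcgrt was at 10697 ± 571 CPM (SD, n = 4) at P6 and 81.8 ± 6.48 CPM at P36 in the jejunum, so that its fall was smaller in the ileum (3.07 ± 0.44, edgeR adjusted p = 0.000396). Mfsd2a, a lysophospholipid transporter gene, was at 6.02, 5.95, 0.759 and 0.490 CPM at P6 and 23.7, 13.4, 14.7 and 16.5 CPM at P36 in the ileum and at 603 ± 173 CPM (SD, n = 4) at P6 and 48.3 ± 3.59 CPM at P36 in the jejunum (6.00 ± 0.76, edgeR adjusted p = 0.000144). Abhd3, a phospholipase gene, rose in the ileum (2.12) and fell in the jejunum (-2.65, difference 4.77). The ileal call of Mfsd2a was lost without P6 replicate 4 (1.99), and that of Abhd3 without P36 replicate 1 (1.77) and without P6 replicate 3 (1.88). Serpina1a (6.80), whose near-identical relatives leave its counts uncertain, Ifit2 (4.62), Acta1 (4.99), Ephb3 (4.38) and Pdia2 (4.44) were also among the 8 largest under the same ranking rule. Fgf15, with a larger difference (7.33), was outside that ranking because its change in the ileum was not called. Ephb3 rose in the ileum, and in the jejunum it was at 18.9 ± 5.02 CPM (SD, n = 4) at P6 and 7.71 ± 1.03 CPM at P36. Bile acid genes belonged here as well: Slc51b (difference 3.21 ± 0.28, edgeR adjusted p = 3.58e-06) had a jejunal log2 fold change of 0.24. Slc51a (difference 2.40) changed there by -0.50 and Nr1h4 (difference 1.88) by -1.85. Fgf15 was at 129 ± 37.0 CPM (SD, n = 4) at P6 and 0.202 ± 0.202 CPM at P36 in the jejunum (difference 7.33 ± 1.44, edgeR adjusted p = 0.00431). For Fabp6 (3.72) and Slc10a2 (3.29) no difference was called. Slc40a1 fell less in the ileum (3.90), Hsd11b2 (2.10) and Fkbp5 (1.86) rose more, and the clock output gene Hlf fell in the ileum (-4.18) while it rose in the jejunum (3.60, difference -7.78).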

How the data were processed

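Bulk RNA sequencing counts of the 8 ileum libraries (4 at P6, 4 at P36, each from a separate mouse) were analysed, with the 8 jejunum libraries of the same mice. The authors made stranded mRNA libraries, used Trimmomatic 0.38 for trimming and STAR 2.5.3 for alignment to mm10, and obtained exon counts per gene with featureCounts (Subread 1.6.3), versions as in the submitters' processing notes. The deposited values are raw counts per gene, without normalization, for 24421 genes per library.

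Genes were kept by edgeR's filterByExpr (13429 genes), scaled by TMM and tested in 1 quasi-likelihood fit of all 16 libraries with 4 group means and no block (edgeR 4.0.16, limma 3.58.1, R 4.3.3). P-values were adjusted over the 13429 genes by the Benjamini-Hochberg method. A gene was called with age at a log2 fold change beyond 2 in either direction together with an adjusted p below 0.05, and a difference between regions an adjusted p below 0.05. The standard error is the log2 fold change divided by the square root of the F statistic. CPM use TMM-scaled totals, and RPKM divide them by the exon length in the files. A group without counts is limited by 3 counts over the group, 0.0365 CPM at P6 and 0.0412 CPM at P36, which covers counting error only. In simulated counts 200 genes were changed by 3 on the log2 scale. Of these, 196 were recovered for the ages in the ileum with 1 false call, and 178 for the difference between regions with 5. The simulation had far fewer changed genes than the data, independent noise, and no library with a GC trend or RNA of deeper layers. Its numbers therefore check the procedure and do not give the error rates in these data.

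Replicates were not copies: chi-square per gene between libraries of a group was at least 16.82 in the ileum and 11.01 in the jejunum. Deviations of the ileum and jejunum of a mouse from their group means correlated at 0.157 to 0.391 at P6 and 0.24 to 0.347 at P36 across genes, so the mouse pairs the regions.

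Gene lists were compiled by hand. The members and lists were chosen with earlier results of these data known, so no p is given for a list. Genes named are the 10 largest non-overlapping fold changes in each direction with a mean of at least 10 CPM in the higher group, the 10 highest by RPKM at each age, defining members of each list with up to 6 called members of smallest adjusted p, members against their list, cell markers and the 8 largest differences between regions in each direction. Those differences were ranked among genes also called with age in the ileum and with a mean of at least 10 CPM in some group. Dpp7, Ctsf, Mcoln1, Cln3, Khk, Nos2, Rps2, Rpl36, Ifit3, Oas3, Gbp2, Cyp4b1, Fut2, Aldh1a1, Alpi and Nnat were chosen after their values were seen. Some genes that these rules name are not reported here.

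The alternatives were DESeq2 1.42.0, scaling by totals or by median of ratios, a robust prior, a fit of the 8 ileum libraries alone, a sex term, thinning to the smallest library, a mean CPM of at least 1 or no filter at all, calls on the adjusted p only, a replicate block for the mouse in the comparison of regions, and each ileum library left out. Fits with only P6 libraries 1 and 3 or 2 and 4, and a loess correction for GC content (span 0.3, 12948 genes with a value), were chosen after seeing the data.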

Additional observations from a re-analysis of the deposited data

Results flagged for a closer look

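Within each age the 4 libraries were examined for the highest or lowest one whose gap to the nearest other exceeded Dixon's 95% critical share of the range for 4 samples, in 434 groups for 217 named genes. Flags numbered 47, 26 of them P6 replicate 4 and 6 P6 replicate 2. The critical share flags about 1 in 20 groups of normally spread values. Some of these genes were chosen after their values were seen, and some flags rest on few counts against 0. The number of flags therefore cannot be held against that rate. P6 replicate 4 was lowest for Ftl1 at 73.9 CPM (others 3080 to 3480), Guca2a at 271 CPM (others 1340 to 1550), Cln3 at 36.9 CPM (others 137 to 156), Slc6a19 at 481 CPM (others 507 to 511) and Ucp2 at 17.5 CPM (others 87.4 to 100). It was also lowest for Pcx at 2.26 CPM (others 13.6 to 15.7), Cyc1 at 42.8 CPM (others 100 to 110), Rps2 at 140 CPM (others 347 to 386), Rpl36 at 0.196 CPM (others 70.6 to 80.6) and Ret at 111 CPM (others 205 to 216). Lower values stood there too for Cldn4 at 50.9 CPM (others 364 to 424), Alpi at 1470 CPM (others 2640 to 2700), Rarres1 at 48.4 CPM (others 99.5 to 102), Adam12 at 3.73 CPM (others 14.3 to 15.8) and Acta1 at 0.049 CPM (others 0.494 to 0.542). The same library was highest for Tfec at 347 CPM (others 175 to 191), Hyal5 at 273 CPM (others 140 to 162), Dab2 at 1610 CPM (others 1060 to 1120), Ctsc at 67.1 CPM (others 29.6 to 31.8) and Slc2a2 at 61.5 CPM (others 34.1 to 37.9). Higher values stood in it too for Slc5a1 at 472 CPM (others 327 to 346), Abcc2 at 2930 CPM (others 1490 to 1680), Nr1h4 at 276 CPM (others 188 to 200), Cps1 at 3480 CPM (others 2020 to 2140) and Agr2 at 264 CPM (others 157 to 171). Its values were also the highest for Pcna at 109 CPM (others 63.2 to 68.9). P6 replicate 2 was highest for Rpl29 at 189 CPM (others 12.3 to 24.7), Cd74 at 31.7 CPM (others 4.1 to 6.51), H2-Ab1 at 10.1 CPM (others 1.43 to 2.89), Oas3 at 3.49 CPM (others 0.588 to 1.04) and Gbp2 at 3.36 CPM (others 0.392 to 0.705). For P6 replicate 2 the same held of F10 at 88.7 CPM (others 54.1 to 56.9). P6 replicate 3 stood apart for Ido1 at 0.108 CPM (others 0), Ang4 at 4.88 CPM (others 9.12 to 9.68) and Cldn8 at 200 CPM (others 179 to 183). P6 replicate 1 stood apart for Vdr at 92.9 CPM (others 83.1 to 83.5). P36 replicate 1 was highest for Ctsf at 6.63 CPM (others 1.35 to 1.98), Trpm5 at 7.63 CPM (others 2.77 to 3.29), Gata4 at 31.6 CPM (others 0.735 to 5.56), Igf2 at 7.74 CPM (others 0.98 to 1.98) and Cyp4b1 at 207 CPM (others 6.29 to 31.9). For P36 replicate 1 the same held of Stab2 at 0.0553 CPM (others 0) and Gpr151 at 0.0553 CPM (others 0). P36 replicate 3 stood apart for Cd36 at 0.0817 CPM (others 0.94 to 1.03) and Tnfsf13 at 7.27 CPM (others 3.01 to 3.24). P36 replicate 4 was highest for Abcc3 at 99.6 CPM (others 75.4 to 77.3) and Nr1h4 at 233 CPM (others 215 to 217). Beyond single genes, P6 replicate 4 stood apart in the Spearman correlation of its deviations with GC content (-0.754, others 0.417 to 0.595). Replicate 4 is part of the reference for those others, so their values are not independent of it. Replicate 4 also stood apart in the summed CPM of enteric neuron and glia markers (115, others 212 to 222). P6 replicate 2 did so in the sums for smooth muscle (228, others 1.41 to 3.53), fibroblasts (247, others 20.6 to 44.4) and endothelium (40.7, others 2.49 to 6.82), and P36 replicate 2 in that for smooth muscle (1.53, others 0.317 to 0.387).

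The change with age differed between ileum and jejunum for 62 of the named genes, at an edgeR adjusted p below 0.05 for the difference of the log2 fold changes (ileum minus jejunum), which is given in brackets. It was negative for Rarres1 (-12.14), Adam12 (-10.62), Afp (-9.76), Il18r1 (-8.54), Gm766 (-8.11), Hlf (-7.78), Stab2 (-6.51), Gpr151 (-6.46) and Slc23a1 (-6.29). Smaller negative values belonged to Cyp11a1 (-5.86), Slc6a14 (-5.61), Meg3 (-5.34), Cmtm8 (-5.07), Dclk1 (-4.29), Slc2a2 (-4.19), Ctsf (-4.16), Reg3b (-3.68) and Mgam (-3.44). Negative differences were also found for Nt5e (-3.38), Mcoln3 (-3.28), Abcc2 (-3.26), Igf2 (-3.04), Sis (-2.92), Peg3 (-2.74), Cyp2c68 (-2.48), G6pc (-2.35) and Slc1a1 (-2.21). The least negative ones belonged to Cldn8 (-2.15), Reg3a (-2.11), Galc (-1.85), Nr1d1 (-1.67), Spink1 (-1.59), Nts (-1.29), Gla (-1.01), Atp6v1a (-0.84) and Vdr (-0.80). It was positive for Fgf15 (7.33), Serpina1a (6.80), Mfsd2a (6.00), Acta1 (4.99), Abhd3 (4.77), Ifit2 (4.62), Pdia2 (4.44), Ephb3 (4.38), Slc40a1 (3.90) and 1810065E05Rik (3.63). Positive differences were also found for Slc51b (3.21), Fcgrt (3.07), Bco1 (2.72), Tnfsf13 (2.44), Slc51a (2.40), Ttr (2.27), Hsd11b2 (2.10), S100g (2.02), Plagl1 (2.00) and Psmb8 (1.95). The smallest positive ones belonged to Nr1h4 (1.88), Fkbp5 (1.86), Kcnn4 (1.56), Cdc20 (1.15), Arntl (0.79) and Stra6l (0.72).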

How the results depend on the processing

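Of 177 named genes called with age, 160 kept their call under every alternative and 17 lost it under at least 1, mostly near the fold change limit, while 11 uncalled genes passed under at least 1. No named gene's called direction reversed. The numbers of genes higher at P36 and at P6 were 859 and 1345, and 3428 and 4047 without the fold change minimum. With 1 library left out at a time they ranged from 847 to 963 and from 1293 to 1478. The choice of genes and libraries fitted moved them further. They were 720 and 1081 with a mean CPM of at least 1, and 766 and 1165 in the 8 ileum libraries alone. Without a filter they were 1025 and 1925. Of the 859, 756 were also called without P6 replicate 4 and 829 without P6 replicate 2, and of the 1345, 1273 and 1243. No paired analysis was possible because each mouse was sampled at 1 age and the replicate numbers of P6 and P36 name different mice. For the difference between ileum and jejunum, the 1167 genes became 453 with an added minimum of 2, and 1836 with the correction for GC content. With the mouse as a replicate block, the pairing gave 1294 genes, 1015 of them among the 1167, and 2402 with the block and the correction for GC content together. With 1 ileum library left out they ranged from 844 (without P36 replicate 2) to 1912 (without P6 replicate 4). Of 62 named genes with such a difference, 44 kept it under every alternative and 18 lost it under at least 1: Reg3b, Reg3a, Slc6a14, G6pc, Cdc20, Psmb8, Vdr, Ttr, Kcnn4, Stra6l, Bco1, Nr1d1, Adam12, Stab2, Gpr151 and, also with the block, Nts, Tnfsf13 and Plagl1. The median of 8 of 52 gene lists changed sign under some alternative, each of them a list with a median near 0 or of cell markers at low counts. The median over all tested genes lay between -0.093 and 0.014 under the alternatives. Depth limits genes with few counts at 1 age, whose fold change depends on the prior count.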
